A study of Capra hircus with 12 samples.

Results

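Relative to the bulk of other transcripts, the 9 genes described here had their highest mean level at the middle of 3 glucose doses. As a share of all reads assigned to genes, only 4 of the 9 did. The 9 are CSDC2, FPGS, REC8, DDR2, NUDT12, MTIF3, SPATA13, ASCC1 and CDK2AP2, out of the 15810 genes listed for every library. They were chosen by their measured levels in these libraries, for being higher at the middle dose than at one or both other doses, so every value that compares the middle dose with another is a description of how they were chosen and carries no test. The samples were mammary gland biopsies of lactating female dairy goats whose gland had received a high, a middle or a low dose of glucose. There were 12 RNA-seq libraries, 4 for each dose, with 9555072 to 12716883 reads assigned to genes per library. The sources used here give neither numeric doses nor the ages of the goats, and every group received glucose, with no uninfused group analysed here. Whether a dose's 4 libraries are 4 different goats is left unsaid by the labels, so any p-value reflects only spread between samples, which may be technical.

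The lactating gland takes up glucose from blood, turns much of it into lactose and burns part of it for energy and reducing power. Its secretory epithelium also makes caseins and whey proteins from a few very abundant transcripts. The 9 genes belong to no single pathway. FPGS keeps folates inside cells and mitochondria, MTIF3 starts protein synthesis in mitochondria, and NUDT12 hydrolyses NADH and removes NAD caps from RNA. CSDC2 binds RNA through a cold shock domain, and ASCC1 is a subunit of the ASC-1 complex, a transcriptional coactivator that also acts in the repair of alkylated DNA. REC8 is the kleisin subunit of the cohesin ring in meiosis, and CDK2AP2 is a relative of CDK2AP1, a CDK2-binding protein of the NuRD chromatin complex. DDR2 is a receptor tyrosine kinase for fibrillar collagen, and SPATA13 is a guanine nucleotide exchange factor. The terms that the tables attach to genes were shared by few of them: ATP binding by FPGS and DDR2 and the general metabolic pathway map by FPGS and NUDT12. For ASCC1 the terms were mitochondrial outer membrane and voltage-gated anion channel activity, which differ from the role given above. The table description of ASCC1 names the ASC-1 complex subunit.

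The genes lie on 8 chromosomes, and the coordinates are those of the deposited tables, whose build is not named, with chromosome names matched through gene IDs. CSDC2 spans chr5:103800441-103814855, FPGS chr11:96953911-96966688 and REC8 chr10:20505110-20510703. DDR2 spans chr3:6159865-6331006, NUDT12 chr7:98490283-98504628 and ASCC1 chr28:25972385-26087747. MTIF3 and SPATA13 share a chromosome, at chr12:30251508-30264912 and chr12:31978856-32038252, and CDK2AP2, the shortest, covers 1754 bases at chr29:43206221-43207974. The tables name 7 of the 9 directly. DDR2 and SPATA13 are listed there under placeholder names and were found by their gene IDs, with table descriptions of discoidin domain receptor family member 2 and of a spermatogenesis-associated protein 13-like gene.

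The share of milk protein transcripts differed so much between libraries that the way libraries are scaled matters for these genes. The 8 milk protein genes took 52.0, 57.7 and 58.9% of the counts in middle-dose replicates 1, 2 and 4, but 3.44% in middle-dose replicate 3. They took 2.18 to 13.7% at the low dose and 7.48 to 42.1% at the high dose, where replicate 2 was highest. Levels are given as CPM, counts per 1000000 reads of a library size scaled by the trimmed mean of M values (TMM), which sets the bulk of genes equal between libraries. TMM factors were 0.612, 0.521 and 0.514 in middle-dose replicates 1, 2 and 4, 1.37 in middle-dose replicate 3 and 1.25 to 1.50 at the low dose. A scaled CPM therefore says how abundant a transcript was relative to the bulk of other transcripts, not how large a part of all mRNA it was. Scaling by library size alone instead of TMM moved the median gene by -0.84 (log2) in middle minus low and by 0.54 in high minus middle.

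CSDC2 and NUDT12 had by far the widest differences. Their middle-dose means, like those of FPGS and REC8, were highest under all 3 scalings (TMM, library size, and library size without milk protein genes). CSDC2 stood at 105, 223, 18.5 and 104 CPM in middle-dose replicates 1 to 4. It stood at 11.3, 8.95, 13.7 and 14.8 CPM at the low dose and at 22.3, 18.9, 10.1 and 11.3 CPM at the high dose. Replicates 1, 2 and 4 of the middle dose were thus far above every other library, whereas replicate 3 lay above the low-dose libraries but below high-dose replicates 1 and 2. The mean was 113 ± 84.1 CPM (SD, n = 4) at the middle dose, 9.24-fold that of the low dose (12.2 ± 2.60) and 7.18-fold that of the high dose (15.7 ± 5.88). By library size alone these ratios were 3.97 and 3.73. The within-dose spread of CSDC2 was larger than that of 90.6% of the genes tested.

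NUDT12 had 285, 314, 97.4 and 301 CPM in middle-dose replicates 1 to 4. At the low dose it had 35.0, 30.8, 61.3 and 31.3 CPM, and at the high dose 58.2, 142, 38.6 and 83.6 CPM. All middle-dose libraries exceeded all low-dose libraries, and high-dose replicate 2, the high-dose library richest in milk transcripts, exceeded middle-dose replicate 3. The middle-dose mean of 249 ± 102 CPM was 6.30-fold that of the low dose (39.6 ± 14.6) and 3.09-fold that of the high dose (80.6 ± 44.9). On the library-size scale NUDT12 alone among the 9 kept all 4 middle-dose libraries (134 to 174 CPM) above the other 8 (39.4 to 107 CPM). Of 13624 genes tested, 4 (0.0294%) had that pattern, and the others were PPM1K, the phosphatase that switches on branched-chain ketoacid breakdown, C16H1orf105 and LOC102185228, which were named after their values were seen.

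FPGS, REC8, DDR2 and ASCC1 varied less within doses than CSDC2 and NUDT12, and on the TMM scale each had all 4 middle-dose libraries above the other 8, a pattern that 0.976% of the genes tested showed and that the choice of the genes favours. FPGS had 54.7, 60.9, 48.2 and 64.8 CPM in middle-dose replicates 1 to 4, against 26.4, 35.2, 29.9 and 21.2 CPM at the low dose and 28.8, 35.4, 25.2 and 28.5 CPM at the high dose. Low and high doses overlapped throughout, and the middle-dose mean (57.1 ± 7.27 CPM) was 2.03-fold the low-dose mean and 1.94-fold the high-dose mean. By library size alone the first ratio was 1.07 and the second 1.30, and without middle-dose replicate 3 they were 0.857 and 1.03, so the direction against the low dose turned.

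REC8 was the least abundant by CPM, with 22.1, 15.4, 12.1 and 21.0 CPM in middle-dose replicates 1 to 4. Its low-dose values were 5.52, 7.83, 6.30 and 6.61 CPM and its high-dose values 6.98, 8.11, 8.42 and 11.0 CPM. The counts behind these were 89 to 166 reads at the middle dose, 90 to 112 at the low dose and 63 to 150 at the high dose. The middle-dose mean of 17.7 ± 4.69 CPM was 2.69-fold the low-dose mean and 2.04-fold the high-dose mean, and 1.38-fold and 1.30-fold by library size alone.

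DDR2 had 71.0, 80.5, 45.9 and 75.8 CPM in middle-dose replicates 1 to 4, 32.2, 34.6, 40.1 and 34.7 CPM at the low dose and 34.5, 41.6, 29.2 and 38.1 CPM at the high dose. Its low and high doses were nearly level, at means of 35.4 ± 3.35 and 35.8 ± 5.30 CPM, and its middle-dose mean was 1.93-fold the first. By library size alone, which moved the median gene by -0.84, that ratio was 0.981. On that scale middle-dose replicate 3 had 62.9 CPM, above the low-dose range of 43.7 to 50.0 CPM, and the other 3 middle-dose libraries had 38.9 to 43.4 CPM, below it.

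ASCC1 differed from the other 8 in the order of its means, which on the TMM scale ran from the middle dose (50.0 ± 5.92 CPM) through the low dose (33.6 ± 2.95) to the high dose (25.0 ± 5.13). Its values were 52.5, 51.5, 41.3 and 54.6 CPM at the middle dose, 33.8, 37.0, 33.7 and 29.8 CPM at the low dose and 19.9, 25.2, 22.8 and 31.9 CPM at the high dose. Only high-dose replicate 4 reached into the low-dose range. By library size alone the order of the first pair turned, with a middle-dose mean 0.787-fold that of the low dose.

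MTIF3, SPATA13 and CDK2AP2 had high-dose means about midway between the other doses, and none had its middle-dose libraries clear of the high dose. MTIF3 had 73.3, 72.0, 60.0 and 90.7 CPM in middle-dose replicates 1 to 4, 32.4, 45.0, 33.0 and 27.8 CPM at the low dose and 45.1, 68.0, 46.8 and 47.8 CPM at the high dose. The middle dose lay above all low-dose libraries, and high-dose replicate 2 reached into the middle-dose range. Its middle-dose mean was 2.14-fold the low-dose mean and 1.42-fold the high-dose mean, and 1.12-fold and 0.958-fold by library size alone, where the first was 0.912 without middle-dose replicate 3.

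SPATA13 had 235, 176, 137 and 229 CPM at the middle dose, 60.7, 80.7, 64.6 and 59.2 CPM at the low dose and 75.2, 161, 171 and 125 CPM at the high dose. High-dose replicates 2 and 3 were above middle-dose replicate 3, and high-dose replicate 1 was at the level of the low dose. CDK2AP2 had 42.5, 58.1, 40.1 and 63.8 CPM at the middle dose, 20.4, 23.6, 26.8 and 22.4 CPM at the low dose and 34.0, 43.4, 38.5 and 26.4 CPM at the high dose. The middle-dose means were 2.93-fold (SPATA13) and 2.19-fold (CDK2AP2) the low-dose means. By library size alone SPATA13 had a ratio of 1.50 and CDK2AP2 of 1.15 (0.945 without middle-dose replicate 3), and against the high dose both ratios were below 1, at 0.966 and 0.939.

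**Figure D1:**
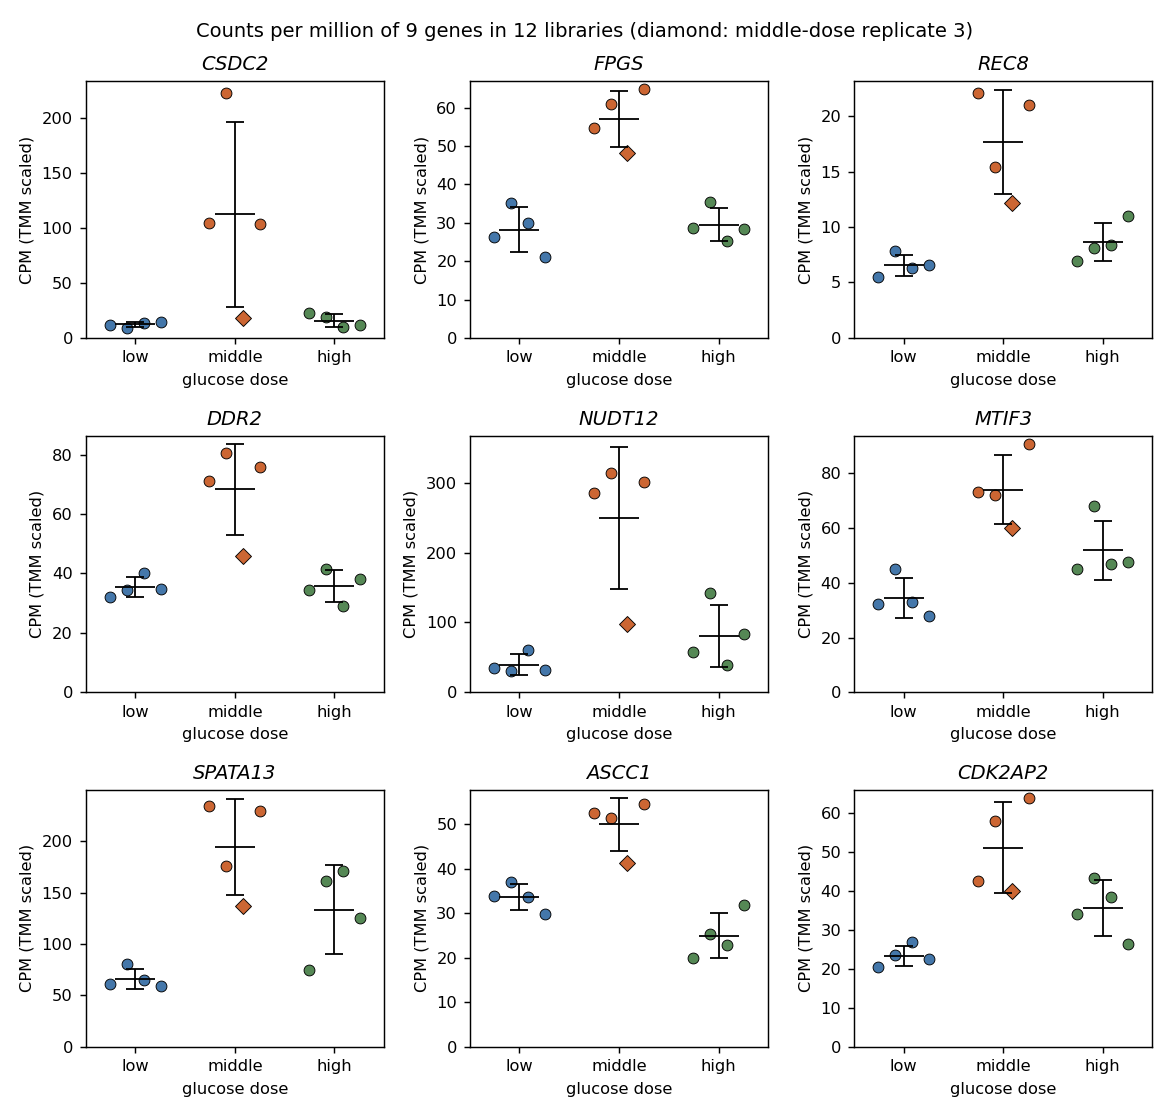
Each panel plots the TMM-scaled CPM of a gene (vertical axis, from 0) in the 4 libraries of each glucose dose, as points in the order of replicates, with the mean and SD as bars. Middle-dose replicate 3 (diamond) is the lowest middle-dose library in 9 of 9 genes (33.3% of all genes tested). Every middle-dose library is above all low-dose libraries in 9 of 9 (5.93% of all genes tested), a pattern that the choice of genes favours.

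Across the 9 genes the middle-dose mean was highest in 9 on the TMM scale, in 9 with milk protein genes left out of the library size, and in 4 (CSDC2, NUDT12, FPGS and REC8) by library size alone, where the rank of FPGS rested on middle-dose replicate 3. On the TMM scale 9 of 9 had all middle-dose libraries above all low-dose libraries, as did 5.93% of all genes tested, and 4 of 9 had them above all high-dose libraries, as did 2.61%. By library size these counts were 2 (0.389% of all genes) and 1 (0.161%). In 0 of 9 did all low-dose libraries lie above all middle-dose libraries (5.92% of all genes) or above all high-dose libraries (2.47%), or all high-dose above all middle-dose libraries (3.33%). The choice of genes used these comparisons, so nothing is read from the counts. Median log2 differences on the TMM scale were 1.13 for middle minus low and -0.96 for high minus middle in these genes, against -0.03 and 0.03 over all genes tested.

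**Figure D2:**
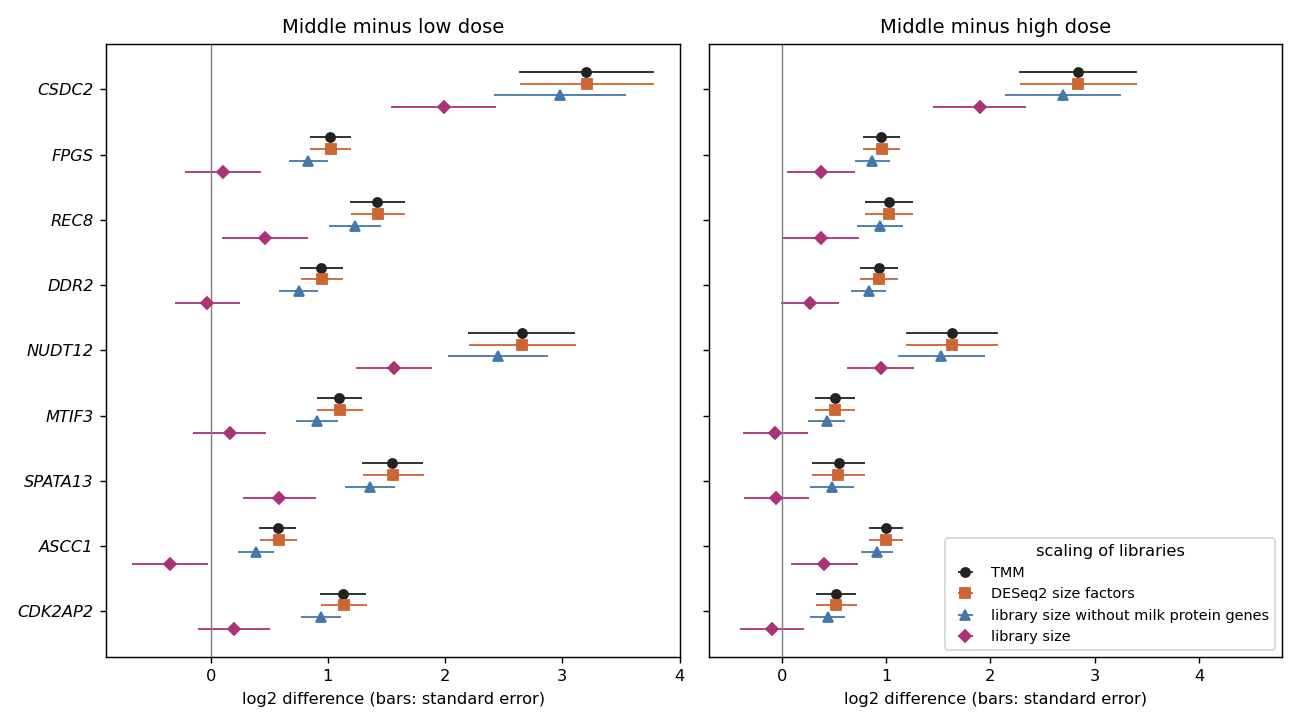
Log2 differences (horizontal axis) of the middle dose from the low dose (left) and from the high dose (right) are shown for the 9 genes under 4 ways of scaling libraries, with standard errors. TMM, DESeq2 size factors and library size without milk protein genes lie together, whereas library size alone shifts every gene left and puts DDR2 and ASCC1 below 0 against the low dose and MTIF3, SPATA13 and CDK2AP2 below 0 against the high dose.

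Middle-dose replicate 3 gives a comparison that scaling hardly touches, because its milk protein share and its TMM factor were within the low-dose range. In this library 9 of 9 genes were above all 4 low-dose libraries, both on the TMM scale (19.9% of all genes tested) and by library size (18.4%). FPGS, for example, had 66.1 CPM by library size there and 26.7 to 49.8 CPM at the low dose, and ASCC1 had 56.7 against 37.6 to 52.5 CPM. The choice of genes used this library too, so these counts were favoured in advance and nothing is read from them. On the TMM scale the same library was the lowest of the middle dose for all 9 genes (33.3% of all genes), whereas by library size it was the highest for 7 of them (89.2% of all genes) and the lowest for CSDC2 and NUDT12 (3.92% of all genes). High-dose replicate 2, with 42.1% of milk protein reads, was on the TMM scale the highest high-dose library for FPGS, DDR2, NUDT12, MTIF3 and CDK2AP2, 5 of 9, as it was for 20.4% of all genes tested. The part of the milk share in the differences between doses was not tested.

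**Figure D3:**
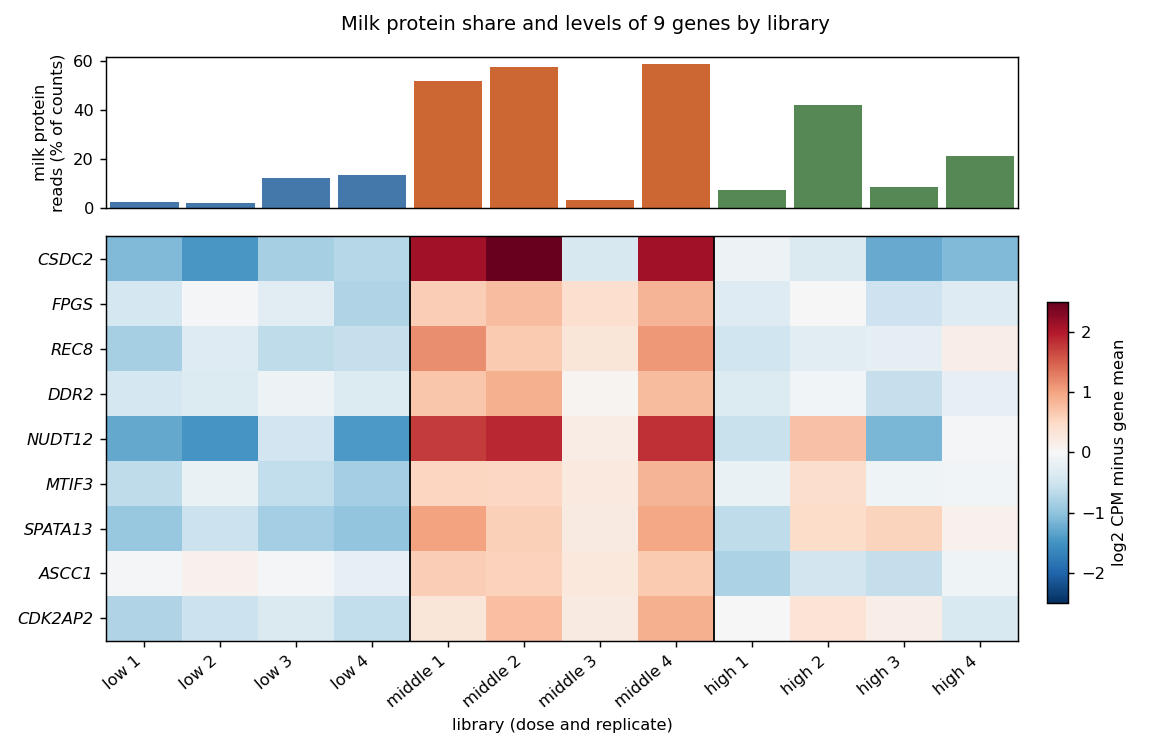
The upper bars show the share of counts from 8 milk protein genes in each library (percent), and the lower panel colours each gene's log2 TMM-scaled CPM minus its mean over the 12 libraries. Middle-dose replicates 1, 2 and 4 combine 52.0 to 58.9% of milk protein reads with levels above all low-dose and high-dose libraries in 8 of 9 genes (CDK2AP2 is the exception), as in 7.9% of all genes tested, and replicate 3, at 3.44%, is paler in all 9 genes.

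Marker genes of several cell types also differed in level between these libraries. The summed CPM of 10 listed luminal epithelial markers (of 11 sought) was 3650 to 7148 at the low dose, 5963 to 27779 at the middle dose, with replicate 3 lowest, and 5365 to 17925 at the high dose. Only 6 of 10 luminal estimates were higher at the middle dose than at the low dose, so these markers did not move together. Endothelial markers (7 of 8 listed) summed to 611 to 815 CPM at the low dose, 640 to 1338 at the middle dose and 650 to 853 at the high dose, with 7 of 7 estimates higher at the middle dose than at the low dose. Muscle markers (4 of 7 listed) summed to 28.3 to 44.1, 15.0 to 149 and 23.5 to 113 CPM. Macrophage markers (7 of 8 listed) summed to 276 to 715 CPM at the low dose, 262 to 351 at the middle dose and 348 to 516 at the high dose, with 1 of 7 estimates higher at the middle dose than at the low dose. T and NK cell markers (8 of 9 listed) summed to 143 to 224 CPM at the low dose, above both the middle dose (54.3 to 107) and the high dose (60.3 to 116). None of the listed markers was at 0 in all libraries. In bulk tissue, fewer cells of a type and less RNA per cell cannot be told apart, and the part of cell makeup in the levels of the 9 genes was not tested.

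Whether the genes differed between the ends of the dose range was read from the high against the low dose. These libraries also entered the choice of the genes, so this test is only partly separate from it. Choice against the low dose favours low values there and a difference above 0, and choice against the high dose favours one below 0. By edgeR p, SPATA13, CDK2AP2 and MTIF3 ranked 3, 9 and 11 of 13624 in middle against low, and ASCC1 ranked 2 in high against middle. The choice therefore favoured the signs of their high minus low differences. With edgeR's quasi-likelihood test, 0 of 9 genes passed an adjusted p of 0.05, as did 0% of the 13624 genes tested (1560 at unadjusted p under 0.05, 57 adjusted by DESeq2 and 0 by limma voom with quality weights). SPATA13 came nearest, 2.01-fold higher at the high dose with log2 1.01 ± 0.25 (SE), adjusted p = 0.386 by edgeR. DESeq2 gave it an adjusted p of 0.0492, as the only gene of the 9 among its 0.418% of genes called. CDK2AP2 (0.61 ± 0.19) and MTIF3 (0.59 ± 0.19) had the same edgeR adjusted p of 0.386, and all 4 high-dose libraries of MTIF3 lay above the low dose (2.25% of all genes), by a margin of 45.1 against 45.0 CPM. NUDT12 stood at 1.02 ± 0.43 (edgeR adjusted p = 0.408) and at 0.61 without high-dose replicate 2.

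ASCC1 was lower at the high dose by estimate, at -0.43 ± 0.16 with an edgeR adjusted p of 0.388. REC8 (0.40 ± 0.23, edgeR adjusted p = 0.498) and CSDC2 (0.36 ± 0.54, edgeR adjusted p = 0.803) were higher by estimate, and CSDC2 stood at 0.14 without high-dose replicate 1. For FPGS (0.06 ± 0.17) and DDR2 (0.02 ± 0.18) the estimates were near 0 and changed sign with the scaling, to -0.27 and -0.30 by library size alone, where the median of all genes moved by -0.30. The edgeR adjusted p-values of this pair were 0.896 and 0.976.

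In the comparisons that the choice of genes used, edgeR also called 0 of 9 genes and 0% of all genes: 3234 genes had an unadjusted p under 0.05 in middle against low, 2029 in high against middle and 2989 in middle against the mean of both. Other analyses called many genes. DESeq2 called 10.3%, 2% and 7.71% of all genes in these 3 comparisons, and limma voom with quality weights called 34.5%, 2.45% and 26%, each with 9, 6 and 9 of the 9 genes among them. Without middle-dose replicate 3 edgeR called 2390 (17.3%), 505 (3.66%) and 2170 (15.7%) genes, again with 9, 6 and 9 of the 9. Without low-dose replicate 2 edgeR called 16, 0 and 10 genes. The choice of genes favoured the calls of the 9 in advance, so nothing is read from those calls.

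Table layout split the libraries into 8 and 4 that list slightly different genes, a split no label mentions. The middle-dose mean on the TMM scale was highest in both layouts for 9 of 9 genes. The layout of 4 holds only 1 low-dose and 1 middle-dose library. The libraries of both layouts entered the choice of the genes, and the share of all genes with this pattern was not counted, so nothing is read from the count. SPATA13 was the closest case: in the layout of 8 its means were 181 CPM at the middle dose (n = 3) and 166 CPM at the high dose (n = 2), and in the layout of 4 they were 235 (n = 1) and 100.3 CPM (n = 2). The high minus middle log2 difference of SPATA13 was -0.54 ± 0.25 (SE) over all libraries, -0.35 without high-dose replicate 1 and -0.12 in the layout of 8 alone. CSDC2 had 115 against 14.5 CPM in the first layout and 105 against 16.8 CPM in the second.

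Neighbouring genes were read to see how far each difference extended along the chromosome. The intervals of CSDC2, REC8, MTIF3 and ASCC1 overlap those of PMM1, IPO4, GTF3A and ANAPC16 in the tables, and the sources used here do not say if reads were counted by strand, so reads of overlapping genes cannot be told apart. On the TMM scale the middle minus low log2 difference was 3.20 ± 0.57 (SE) for CSDC2 and 0.06 ± 0.25 for PMM1, an enzyme of mannose phosphate metabolism. It was 1.42 ± 0.23 for REC8 and -0.05 ± 0.17 for IPO4, a nuclear import receptor, and 1.10 ± 0.19 for MTIF3 and -0.17 ± 0.21 for GTF3A, a factor of 5S ribosomal RNA transcription. ASCC1 was the exception, since ANAPC16, a subunit of the anaphase-promoting complex, had 0.39 ± 0.19 beside 0.57 ± 0.16 for ASCC1.

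The nearest tested flanking genes had smaller estimates of middle minus low than the gene they flank. Beside FPGS (1.02 ± 0.17) stood ENG, a coreceptor of endothelial cells 1617 bases away, at 0.50 ± 0.19 and CDK9, a transcription elongation kinase, at -0.05 ± 0.11. Beside ASCC1 stood SPOCK2 at -0.47 ± 0.36 and DDIT4 at -0.29 ± 0.56, and beside SPATA13 (1.55 ± 0.26) stood MTMR6 at 0.20 ± 0.16 and C1QTNF9 at -0.17 ± 0.38. PITPNM1, 2420 bases from CDK2AP2, stood at 0.42 ± 0.14 beside 1.13 ± 0.20. DDR2 (0.95 ± 0.18) was flanked by HSD17B7, a cholesterol synthesis enzyme, at 0.76 ± 0.44 and UAP1, which makes UDP-N-acetylglucosamine, at 0.79 ± 0.27. In high minus middle these stood at -0.01 ± 0.44 and -0.28 ± 0.27, against -0.93 ± 0.18 for DDR2. Those of NUDT12 lay far off, at 300085 and 3846310 bases, and stood at -0.10 ± 0.23 and 0.44 ± 0.36 beside 2.65 ± 0.46.

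**Figure D4:**
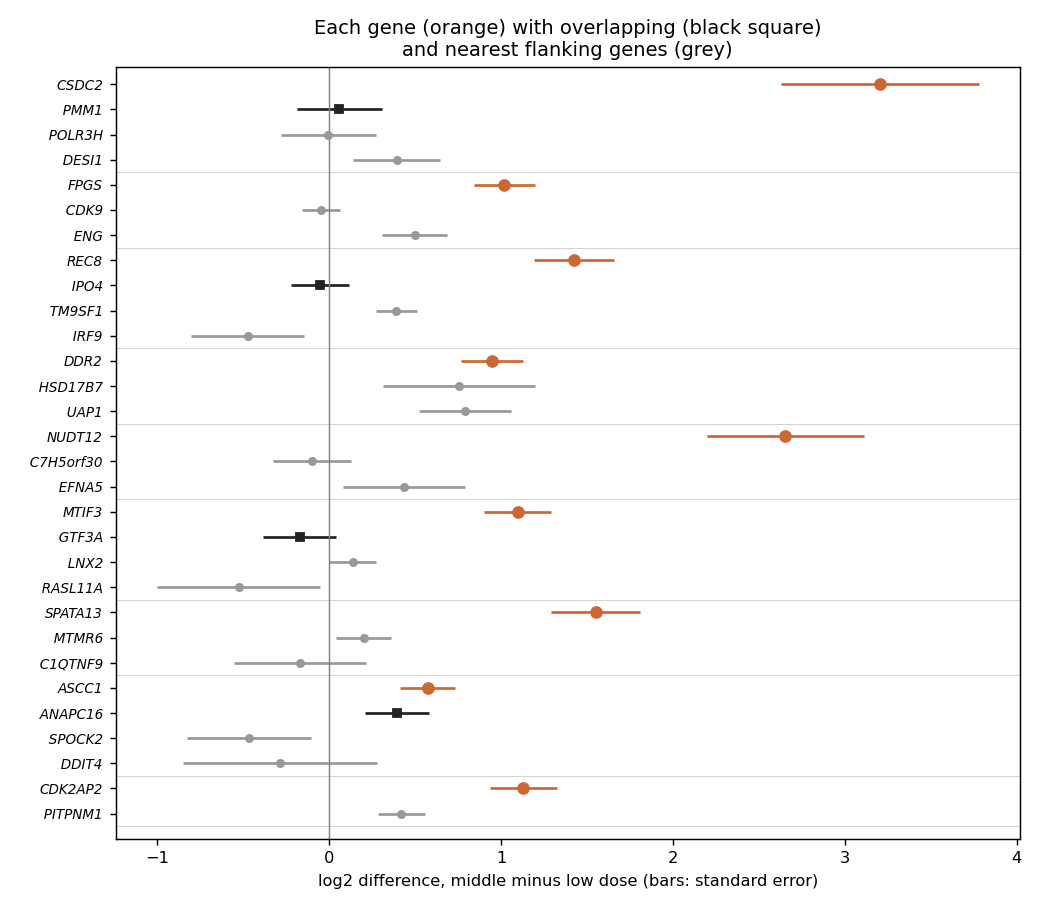
For each of the 9 genes (orange) the log2 difference of middle minus low dose on the TMM scale is plotted with its standard error above that of genes overlapping it (black squares) and of the nearest tested gene on each side (grey). The overlapping PMM1, IPO4 and GTF3A lie within 0.2 of 0, and ANAPC16 lies at 0.39. The 9 genes were picked for being higher at the middle dose and their neighbours were not.

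Pathway partners of 8 of the genes were read from a list built around each, for the middle dose against the mean of both other doses on the TMM scale. The 8 genes themselves were picked for being higher at the middle dose, so values beyond those of their lists were favoured in advance. In none of the 8 lists did edgeR call a gene at an adjusted p of 0.05 (0% of all genes tested), and the median of all genes was -0.03. Of all genes tested 46.8% had an estimate above 0, and 12.1% were upward and 9.84% downward at unadjusted p under 0.05. Folate and one-carbon genes had 12 of 24 estimates above 0 (median 0.10), with 7 upward and 0 downward at unadjusted p under 0.05. MTHFD2, a mitochondrial enzyme of formate production, had 108, 105, 19.0 and 109 CPM in middle-dose replicates 1 to 4 and 15.1 to 25.7 CPM at the low dose. Unlike FPGS, it was within the low-dose range in middle-dose replicate 3. SHMT2 and MTHFD1, which load and interconvert one-carbon units, stood at 0.70 ± 0.22 (SE) and 0.76 ± 0.22 beside 0.99 ± 0.15 for FPGS.

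The list around DDR2 holds collagen receptors, collagens, collagenases and their inhibitors, the crosslinking enzyme gene LOX, the transcription factor gene SNAI1, and the signalling genes SRC, SHC1 and PTPN11. Of its 25 tested genes 2 had estimates above 0 (median -0.49), and 1 was upward and 4 downward at unadjusted p under 0.05, beside 12.1% and 9.84% of all genes. The 4 downward were ITGA2, MMP2, PTPN11 and TIMP-1, of which only ITGA2 encodes a receptor subunit for collagen. The fibrillar collagen genes COL1A1 and COL1A2, whose products bind DDR2, stood at -1.02 ± 0.58 and -1.05 ± 0.58, and the other discoidin receptor gene, DDR1, at -0.51 ± 0.27, against 0.94 ± 0.15 for DDR2. ITGA1, an integrin subunit for collagen, was the upward gene (0.62 ± 0.18), and ITGA2 stood at -1.35 ± 0.38. Summed fibroblast markers (10 of 10 listed) were 3594 to 19891 CPM at the low dose, 1969 to 7150 at the middle dose and 2667 to 10545 at the high dose. The part of fibroblast content in the level of DDR2 was not tested.

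Cohesin and meiotic axis genes had 5 of 20 estimates above 0 (median -0.16), and 1 upward and 0 downward at unadjusted p under 0.05. That gene was RAD21, the kleisin of dividing somatic cells, at 0.53 ± 0.15 beside 1.22 ± 0.19 for REC8. STAG3, the meiotic partner of REC8, stood at -0.56 ± 0.31. Summed germ cell markers (5 of 7 listed) were 11.3 to 15.4 CPM at the low dose, 11.8 to 33.7 at the middle dose and 6.18 to 17.5 at the high dose.

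Mitochondrial translation factors had 11 of 22 estimates above 0 (median 0.03), with 3 upward and 0 downward at unadjusted p under 0.05, the upward ones near the 12.1% of all genes. GUF1, a ribosome-binding GTPase of mitochondria, stood at 0.65 ± 0.15 and MTIF2, the partner initiation factor of MTIF3, at 0.28 ± 0.14 beside 0.80 ± 0.16 for MTIF3. NUDIX and NAD genes had 14 of 28 above 0 (median 0.01), with 1 upward and 0 downward at unadjusted p under 0.05, the mitochondrial NAD kinase NADK2 (0.47 ± 0.19). NUDT12, at 2.14 ± 0.36, was beyond all 28 of them, an outcome that its choice favours.

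Of the ASC-1 complex and alkylation repair list 5 of 7 were above 0 (median 0.18), with 2 upward and 0 downward at unadjusted p under 0.05. TRIP4, the coactivator subunit, stood at 0.35 ± 0.13, ASCC3, the helicase, at 0.18 ± 0.14, and ASCC2 at 0.09 ± 0.10, beside 0.79 ± 0.14 for ASCC1. CDK2 and NuRD genes had 4 of 20 above 0 (median -0.19), with 0 upward and 5 downward at unadjusted p under 0.05, beside 12.1% and 9.84% of all genes. MTA2, a NuRD subunit, stood at -0.56 ± 0.17 and CDK2AP1 at -0.25 ± 0.18, against 0.83 ± 0.16 for CDK2AP2. Relatives of CSDC2 with cold shock domains had 2 of 5 above 0 (median -0.23), and 2 upward and 0 downward at unadjusted p under 0.05. YBX3, a Y-box protein, stood at 0.77 ± 0.31 and the closest relative, CARHSP1, at -0.51 ± 0.29, against 3.02 ± 0.44 for CSDC2.

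**Figure D5:**
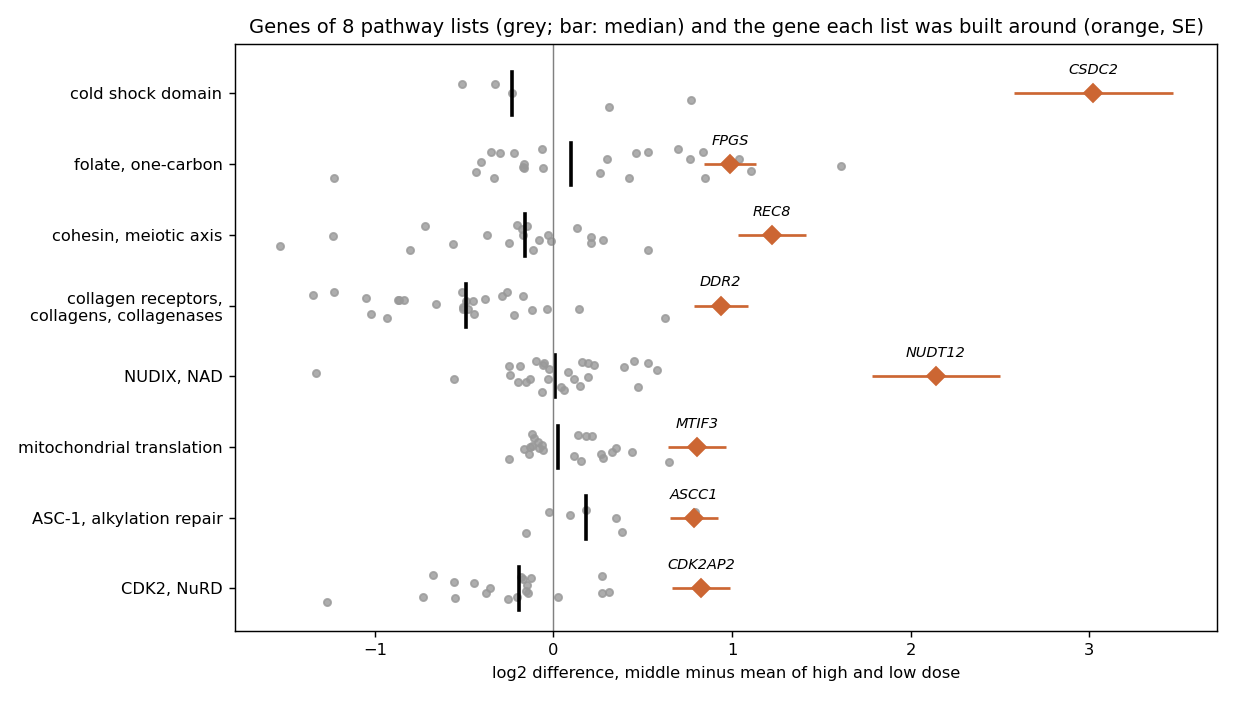
Log2 differences of the middle dose from the mean of high and low (horizontal axis, TMM scale) are plotted for the tested genes of 8 lists (grey, black bar at the median) with the gene each list was built around (orange, with standard error). List medians lie between -0.49 and 0.18, while the 8 genes, picked for this difference, lie between 0.79 and 3.02.

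How far the genes varied together within doses differed by pair. Over the 36 pairs, the Pearson r of log2 CPM deviations from the dose means (12 libraries) ran from -0.01 (ASCC1 with CDK2AP2) to 0.94 (DDR2 with NUDT12), with a median of 0.52. FPGS with MTIF3 had 0.90 and CSDC2 with DDR2 0.84, while REC8 with CDK2AP2 had 0.02 and CSDC2 with SPATA13 0.10. Middle-dose replicate 3 was below the mean of its dose in 9 of 9 genes and enters every pair. The points share library, depth and milk content, and the values are a description.

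To find the closest profiles, the Pearson r of log2 CPM over the 12 libraries was taken with 11692 other genes. These carry a symbol and average 1 or more on the log2 CPM scale. The r includes the differences between doses by which the genes described here were chosen, so any gene higher at the middle dose can score high. Over the same libraries the chosen genes had a median r of 0.82 among themselves (36 pairs). The matches are a description, and a relation beyond a shared dose pattern was not tested. FPGS was most like VRK3 (0.98), a kinase gene, followed by FHIT and NUDT16L1 (0.95 each). NUDT12 was most like KLHDC4 (0.98) and FAM195A (0.97), and CSDC2 most like SCCPDH (0.97) and the cohesin gene RAD21 (0.96). In VRK3 middle-dose replicate 3 stood at 35.0 CPM, above the low-dose range of 23.4 to 27.2 CPM, as in FPGS. In KLHDC4 it stood at 48.6 CPM, level with the top of the low-dose range of 18.7 to 48.5 CPM.

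MTIF3 and CDK2AP2 had the same nearest gene, GANAB, the catalytic subunit of the enzyme that trims glucose from N-glycans (r 0.94 and 0.95). The next for CDK2AP2 were DAD1 and RPN2 (0.94 and 0.93), subunits of the complex that attaches N-glycans, and for MTIF3 they were GCHFR and BCKDK (0.94 each), BCKDK being the kinase that restrains branched-chain amino acid breakdown. DDR2 was most like ALG1 (0.97), an N-glycan assembly enzyme, and shared C18H19orf54 with CSDC2 and the lipid transfer gene STARD10 with NUDT12 among its 3 nearest. REC8 was most like the Golgi gene YIPF3 (0.96) and SPATA13 like RUSC2 (0.96). ASCC1 had the loosest match, with UBXN7 at 0.92. Whether N-glycan genes are more frequent among these matches than among all genes compared was not tested.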

How the data were processed

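The 12 biopsies were turned into TruSeq libraries, according to the labels' protocols. For each library the authors deposited 1 table of raw read counts per gene, per the file headers. Bowtie 0.12.2 and a mouse build, mm8, are named in the submitters' processing notes, although the tables hold goat genes. How reads were counted, whether by strand, and on which goat build is not given in the sources used here. The 15810 genes in all tables were used, and names came from the tables or, for 681 genes, from the gene ID in the NCBI annotation of ARS1.2 (97.3% of IDs matched). The tables place genes on sequences by accession, and each sequence was given the chromosome name that most of its matched genes have in that annotation.

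Genes with low counts were dropped with filterByExpr of edgeR (a minimum count of 10 and a total of 15), leaving 13624 genes with all 9 described here among them. Dose was the only factor in edgeR 4.0.16 (TMM, quasi-likelihood F test, all 12 libraries, Benjamini-Hochberg threshold 0.05, common biological coefficient of variation 0.363), run in R 4.3.3. Standard errors are the log2 difference divided by the root of F, and log2 CPM used a prior count of 2. The edgeR step was tested on simulated data. DESeq2 was 1.42.0, limma 3.58.1, Python 3.11.15 and matplotlib 3.10.9. Total counts were 9555072 to 12716883. Pairs of libraries of a dose differed by 18.6 to 625 times sampling noise (chi-square per degree of freedom), so all were kept as separate samples.

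The genes, lists and alternatives were chosen with earlier results of these data known. From each list the 3 genes with the smallest p for the middle dose were eligible for naming, and for each of the 9 genes the 3 with the highest r. COL1A1, COL1A2, DDR1, MMP2, TIMP-1, STAG3, MTIF2, ASCC2, CDK2AP1 and CARHSP1 were named for their known relation to a gene of the 9, after their values had been seen. Neighbouring genes were taken by position. Library size without milk protein genes was added as a scaling after the data had been seen. The list built around SPATA13 is not reported here.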

Additional observations from a re-analysis of the deposited data

Results flagged for a closer look

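Of 27 groups of 4 libraries (9 genes at 3 doses, TMM-scaled CPM), 3 held a library far from the other 3 of its dose, where chance alone marks about 1 in 20 groups. NUDT12 in middle-dose replicate 3 stood at 97.4 CPM, below the next library of its dose at 285 CPM. NUDT12 in low-dose replicate 3 stood at 61.3 CPM, above the next at 35.0 CPM. MTIF3 in high-dose replicate 2 stood at 68.0 CPM, above the next at 47.8 CPM.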

How the results depend on the processing

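Scaling decided most of what changed. By library size alone the log2 difference of middle minus low became -0.029 for DDR2 and -0.35 for ASCC1. That of high minus middle became 0.062 for MTIF3, 0.050 for SPATA13 and 0.091 for CDK2AP2. High minus low became -0.27 for FPGS and -0.30 for DDR2. The sign of these near-zero high minus low differences also turned with milk protein genes left out and library size alone (FPGS -0.035, DDR2 -0.080), and for DDR2 with a replicate block (-0.0064) and with table layout as a term (-0.0092). Leaving out each library gave high minus low ranges of -0.049 to 0.19 for FPGS and -0.060 to 0.10 for DDR2. In the other comparisons no gene of the 9 changed sign under any setting but library size alone.

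Counts of genes called by edgeR were 0 in all 4 comparisons. DESeq2 called 57 (high against low), 1410 (middle against low), 272 (high against middle) and 1050 (middle against the mean of both), and limma voom with quality weights called 4701, 334 and 3545 in the last 3. The libraries of the common layout alone gave 8 in high against low. Leaving out each library gave 0 to 19, 0 to 2390, 0 to 505 and 0 to 2170. The highest counts came without high-dose replicate 1 in the first and without middle-dose replicate 3 in the others. The cause was not tested. With a replicate block 0 genes were called in each comparison. Same-numbered libraries did not consistently deviate together (r over genes -0.53 to 0.38, over 0.1 in 4 of 12 pairs, and 1 of 12 libraries closest to its own number). With 4 libraries per dose that also differ in milk content, this cannot settle whether same-numbered libraries share a goat. Depth limits REC8 most, with 63 to 166 reads per library.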
